A study of Mus musculus with 70 samples.

Results

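The 10 genes described here are *Fos*, *Fosb*, *Fosl2*, *Jun*, *Junb*, *Jund*, *Atf3*, *Egr1*, *Ier2* and *Dusp1*, AP-1 and immediate early genes chosen by name. All 10 were found in the deposited count table of 53465 gene IDs, and all 10 passed the filter on low counts that left 13191 protein-coding genes to be tested. RNAseq was performed on regulatory T cells (Tregs) sorted from blood, spleen, lungs, visceral adipose tissue (VAT), colon and back skin of 5 male mice aged 16.6 to 18.6 weeks. All animals carried the allele Foxp3tm4(YFP/icre)Ayr on a B6.129(Cg) background, which expresses YFP and Cre from *Foxp3* so that Tregs could be sorted by YFP, and the labels name no treatment. In each of the 6 tissues, CD44hi Tregs were sorted into an ST2+ and an ST2- population. Spleen and lungs also gave a CD44lo CD62L+ population that was ST2-, which makes 14 groups. ST2 is the receptor for IL-33, and the CD44lo CD62L+ cells are the central, less activated population. Each group had 5 libraries, 1 per mouse, except blood ST2+ with 4 (mice 2 to 5) and colon ST2+ with 3 (mice 1, 3 and 4), after 3 libraries with under 1000000 counts were left out.

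AP-1 is a dimer of a FOS protein with a JUN protein, or of JUN with an ATF protein, which binds DNA through basic leucine zippers. *Fos*, *Jun*, *Egr1* and their relatives are immediate early genes. Their transcription starts within minutes of a stimulus, from transcription factors already present in the cell, and their RNAs are short-lived. T cell receptor signals, cytokines and cell stress all induce them, and so does the enzymatic dissociation of tissue at body temperature, which makes these genes sensitive to how cells were prepared.

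Preparation differed by tissue according to the study's methods. Blood was treated only to lyse red cells, and spleen was disrupted mechanically with no enzyme. Lungs and VAT were digested with collagenase, colon was first shaken in EDTA and DTT and then digested in the same way, and skin was digested longest and in the most collagenase. Spleen and lungs were also enriched for CD4+ T cells with magnetic beads. The tissue of origin and its preparation therefore cannot be told apart in any comparison between tissues, those among lungs, VAT, colon and skin included. Lungs and VAT shared their digestion but not the enrichment with beads. Comparisons of populations sorted from the same suspension, ST2+ with ST2- or CD44hi with CD44lo, share their dissociation.

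The 67 libraries kept held 1304560 to 2759926 counts (median 2039002). Levels are given in CPM, the count relative to the library's total scaled by trimmed mean of M values. The Treg identity genes were present in all 67 libraries, with *Foxp3* at 109 to 428 CPM, *Il2ra* at 208 to 1352 CPM and *Cd3e* at 339 to 698 CPM. *Il1rl1*, which encodes ST2, ranged from 0 to 206 CPM in ST2- and CD44lo libraries and from 229 to 1672 CPM in ST2+ libraries. In these bulk libraries, fewer cells expressing a gene and less RNA per cell cannot be told apart. A gene was called when its fold change was at least 1.5 and its adjusted p at most 0.05 in the quasi-likelihood test of edgeR (adjusted over all tested genes after Benjamini and Hochberg). Fold changes are given as log2 values ± SE. No gene in any library had more than 1 count per start position and strand, and if reads with the same start were counted once, high counts would understate levels. *Junb*, *Fos* and *Dusp1* used a median of 48.3%, 29.1% and 36.0% of their positions, so their fold changes may then be too small. With a correction that assumes this, mean *Fos* in CD44hi Tregs of colon would be 1990 CPM and not 1445, and in spleen 190 and not 181.

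The promoters of *Fos*, *Atf3*, *Jun* and *Dusp1* are shown because they hold matches to the cAMP response element (CRE) or to the AP-1 site of *Jun*, the elements through which CREB, ATF and AP-1 factors act on these genes. They are RefSeq sequences on GRCm38.p6. Those of *Fos*, *Atf3* and *Jun* are the 250 bases that end just before the annotated start, and that of *Dusp1* is 200 bases that end 50 bases before it. Capitals mark each match to TGACGT, the CRE core, read on either strand, to the full CRE TGACGTCA, which contains the core, or to TGACATCA.
Fos, chr12:85473640-85473889, + strand: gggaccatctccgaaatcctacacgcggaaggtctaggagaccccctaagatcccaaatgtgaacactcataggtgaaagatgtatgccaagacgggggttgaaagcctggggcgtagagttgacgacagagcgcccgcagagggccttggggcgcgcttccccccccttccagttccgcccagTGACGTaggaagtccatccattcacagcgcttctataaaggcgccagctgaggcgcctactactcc
Atf3, chr1:191183334-191183583, - strand: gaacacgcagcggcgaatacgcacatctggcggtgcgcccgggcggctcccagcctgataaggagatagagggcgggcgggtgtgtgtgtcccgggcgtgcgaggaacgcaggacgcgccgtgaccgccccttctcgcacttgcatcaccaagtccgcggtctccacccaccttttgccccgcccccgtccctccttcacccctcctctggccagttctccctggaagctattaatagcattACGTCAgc
Jun, chr4:95052223-95052472, - strand: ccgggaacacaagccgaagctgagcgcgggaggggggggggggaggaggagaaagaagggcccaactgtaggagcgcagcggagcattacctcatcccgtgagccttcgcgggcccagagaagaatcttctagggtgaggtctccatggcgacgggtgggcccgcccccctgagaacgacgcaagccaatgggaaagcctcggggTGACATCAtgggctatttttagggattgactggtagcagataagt
Dusp1, chr17:26508523-26508722, - strand: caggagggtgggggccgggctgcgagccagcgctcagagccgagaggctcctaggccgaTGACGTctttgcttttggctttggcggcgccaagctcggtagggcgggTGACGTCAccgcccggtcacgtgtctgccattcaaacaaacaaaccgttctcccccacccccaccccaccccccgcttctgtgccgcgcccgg
The *Atf3* and *Dusp1* windows lie inside the longer annotated spans of these genes. The *Fos* core begins 66 bases before the start. The *Atf3* core lies on the opposite strand at 8 bases before it, so that the capitals read ACGTCA. Counted from the start in the same way, the *Jun* match begins at -45, and the full element of *Dusp1* at -143 with a further core at -191. RefSeq promoters were found for 8 of the 10 genes, all but *Egr1* and *Ier2*. Over the 250 bases upstream of 32851 annotated starts, 6.47% of promoters hold TGACGT, 1.55% hold TGACGTCA and 2.93% hold TGACATCA. The consensus AP-1 site TGACTCA is in 4.46% of promoters and in 0 of the 8. TATAAA is in 12.4% and, among the 8, in *Fos*. These matches are letters in a window and were not tested for binding. In the annotation of the same build, *Fosb* lies at chr7:19302696-19310051 and *Fosl2* at chr5:32135801-32157842. *Junb* (chr8:84974484-84978718), *Jund* (chr8:70698949-70700616) and *Ier2* (chr8:84661331-84662852) share chromosome 8.

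**Figure D1:**
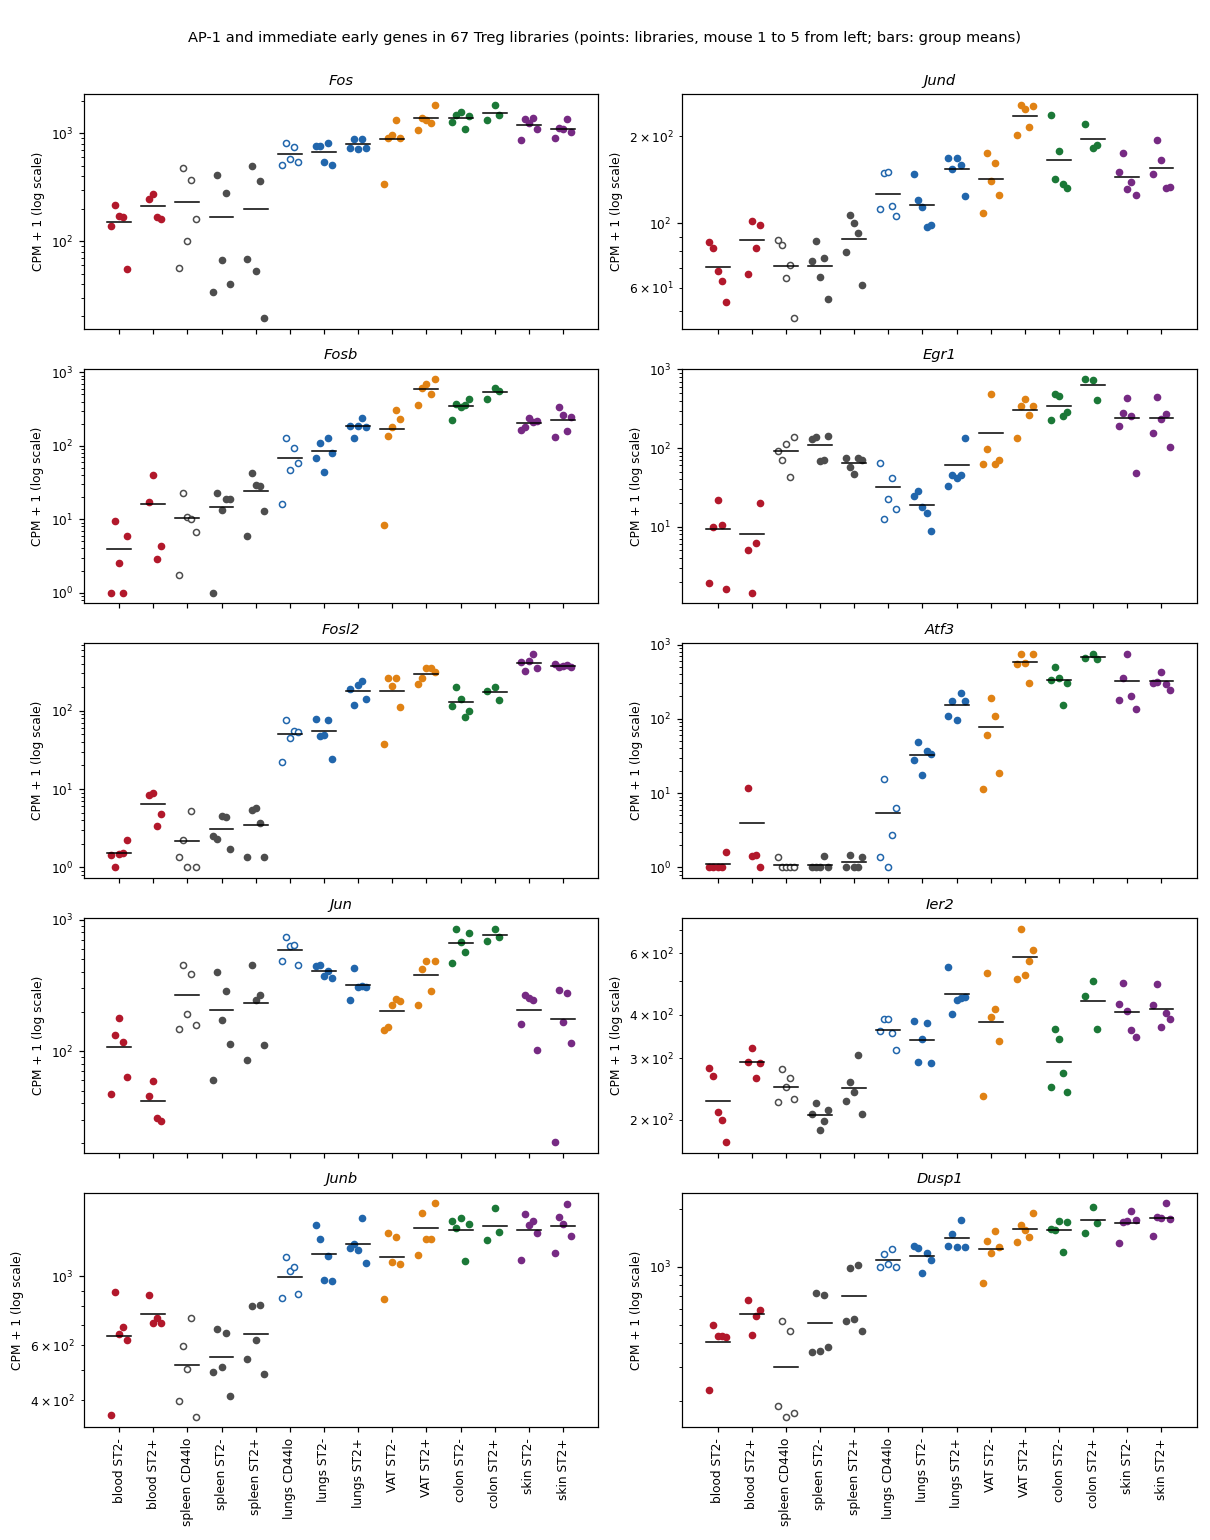
Levels of the 10 genes in all 67 libraries. The y axis is CPM + 1 on a log scale, the x axis the 14 groups, points are libraries with mouse 1 to 5 from left to right, open points are CD44lo Tregs, and bars are group means. *Atf3* is at or near 0 in every blood and spleen group, except 1 blood ST2+ library at 10.8 CPM, and reaches a mean of 679 CPM in colon ST2+ Tregs.

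To ask how these genes vary with tissue, CD44hi Tregs of each tissue were compared with CD44hi Tregs of spleen, giving ST2+ and ST2- groups equal weight (9 libraries of blood, 10 of spleen, 10 of lungs, 10 of VAT, 8 of colon and 10 of skin). These libraries came from 5 mice, and the test treated them as independent of each other. Most of the genes were higher in all 4 nonlymphoid tissues, and the differences were very unequal. *Fosl2*, *Fosb* and *Atf3* were low or near 0 in spleen, while *Junb*, *Jund*, *Ier2* and *Dusp1* were well counted there and differed by less than 3-fold. *Jun* and *Egr1* departed from the others, since *Jun* was called higher in colon only and *Egr1* was lower in lungs. In blood, no gene was higher than in spleen.

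Of the 10 genes, 8 were higher and 1 lower in lungs, where 6.54% of all tested genes were called higher and 3.77% lower. VAT had 9 higher (9.07% of all genes), colon 10 (14.8%) and skin 9 (21.6%), and 0 were lower in these 3 tissues (6.72%, 4.62% and 19.6% of all genes). In blood 0 were higher and 2 lower (3.2% and 4.4% of all genes). These 2 were *Jun* and *Egr1*, and of the others in blood, *Fosl2* (-0.33 ± 0.54), *Junb* (0.22 ± 0.12), *Jund* (-0.01 ± 0.13), *Ier2* (0.19 ± 0.10) and *Dusp1* (-0.33 ± 0.17) did not pass the test. For lungs, VAT, colon and skin in turn, the median log2 fold change of the 10 was 1.06, 1.29, 2.10 and 1.53, beside -0.01, 0.00, 0.04 and 0.00 over all genes tested. In blood it was -0.17, beside -0.04. Within mice, *Fos*, *Fosb*, *Fosl2*, *Junb*, *Jund*, *Atf3*, *Ier2* and *Dusp1* were higher than in spleen in 5 of 5 animals for each of the 4 nonlymphoid tissues. The 5 comparisons share the same spleen libraries, so their counts are not independent of each other.

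**Figure D2:**
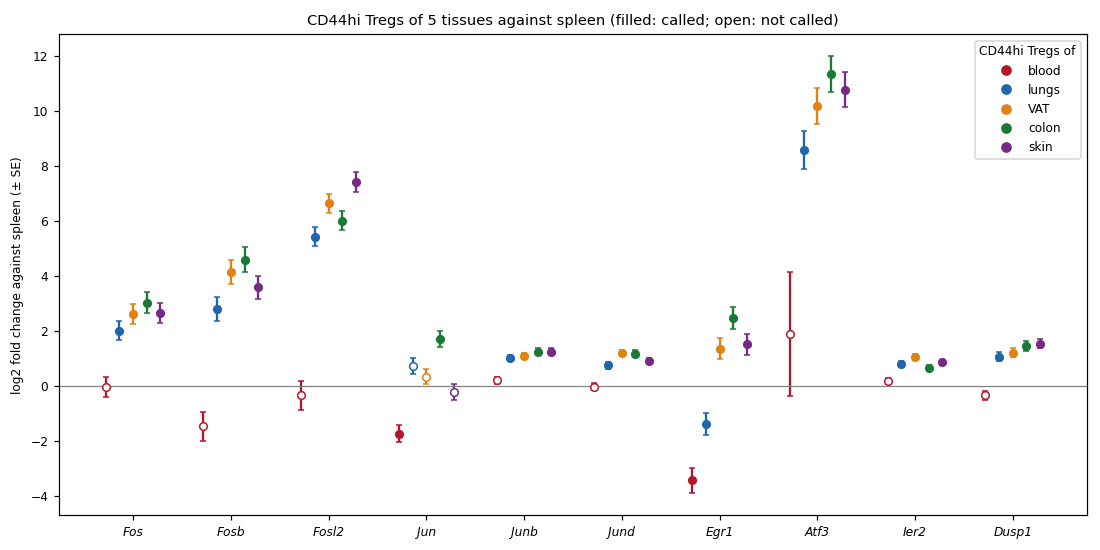
CD44hi Tregs of 5 tissues compared with spleen. The y axis is the log2 fold change ± SE for each gene on the x axis, colours are tissues, and filled points were called. Values of *Atf3* rest on 3 counts in all spleen CD44hi libraries together. *Jun* is filled in blood and colon only, and *Egr1* lies below 0 in blood and lungs and above it in VAT, colon and skin.

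The FOS family gave the widest range of fold changes among genes counted in every tissue. *Fos*, the founding AP-1 partner had a median of 66.2 CPM in the 10 CD44hi spleen libraries, with a lowest of 18.3 and a highest of 492. In lungs the lowest, median and highest values were 508, 745 and 884 CPM, and in colon they were 1106, 1466 and 1851 CPM. Every lung, colon and skin library lay above every spleen library, and VAT overlapped spleen through 1 library at 339 CPM. Compared with spleen, *Fos* was higher by 2.02 ± 0.36 in lungs (adjusted p = 1.89e-05), and by 2.62 ± 0.36 for VAT, 3.03 ± 0.38 for colon and 2.67 ± 0.36 for skin. In blood the change was -0.02 ± 0.36.

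*Fosb*, which encodes a close relative of FOS, was counted at 0 to 41.9 CPM in spleen and at 0 to 39.2 CPM in blood. It reached 43.6 to 238 CPM in lungs, 227 to 602 CPM in colon and 130 to 333 CPM in skin, and 1 VAT ST2- library had 7.45 CPM. Aside from that library, no library of a nonlymphoid tissue overlapped with spleen. The fold change was largest in colon (4.60 ± 0.45), followed by VAT (4.16 ± 0.44), skin (3.59 ± 0.43) and lungs (2.81 ± 0.42). In blood *Fosb* stood at -1.46 ± 0.54, which was not called (adjusted p = 0.0668) but was called with each mouse as a block (-1.47, adjusted p = 0.0345).

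*Fosl2*, encoding FRA2, a FOS-family protein that is made later and lasts longer than FOS, showed the steepest contrast within the FOS family. It had 1 to 12 counts per library in CD44hi Tregs of spleen (0.367 to 4.75 CPM) and 0 to 18 in blood. Skin held the most, 325 to 531 CPM, ahead of VAT at 36.2 to 354, colon at 82.2 to 201 and lungs at 23.0 to 238 CPM. All 4 ranges lay above those of spleen and blood. The fold change was 7.43 ± 0.36 in skin (adjusted p = 4.15e-26), 6.65 ± 0.35 in VAT, 6.02 ± 0.35 in colon and 5.44 ± 0.35 in lungs. Skin was also above VAT (0.78 ± 0.24, adjusted p = 0.00884, with 29.2% of all genes called either way between these tissues) and above colon (1.41 ± 0.27, adjusted p = 3.82e-05, with 25.6% called). *Fosl2* was the only member called higher in skin than in both when the populations were averaged. In ST2+ Tregs alone it was not called higher in skin than in VAT, with means of 374 and 297 CPM. The means in ST2- Tregs were 409 and 177 CPM.

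The JUN family split. *Junb* can restrain JUN activity and is needed for several effector T cell programmes. It was the most abundant member per kilobase of longest coding transcript in spleen ST2- Tregs, at 304 CPM per kb. Its CD44hi spleen libraries ranged from 412 to 806 CPM and its blood libraries from 358 to 888 CPM. The lowest value in any nonlymphoid tissue, 843 CPM in VAT, was above every spleen library. *Junb* was called in all 4, with 1.03 ± 0.12 for lungs, 1.10 ± 0.12 for VAT, 1.26 ± 0.13 for colon and 1.26 ± 0.12 for skin. *Jund*, usually the most constitutive JUN protein, had 52.4 to 106 CPM across blood and spleen and 96.5 to 256 CPM elsewhere, and of the 4 nonlymphoid tissues only lungs overlapped with spleen. It was called in all 4 tissues, most in VAT (1.21 ± 0.12) and least in lungs (0.76 ± 0.12).

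*Jun*, encoding the classical partner of FOS, followed another order. Its CD44hi spleen libraries spread from 59.6 to 448 CPM, with a median of 207. Lungs ranged from 244 to 448 CPM, VAT from 143 to 488, skin from 19.3 to 289 and blood from 28.4 to 178. All 8 colon libraries, at 466 to 856 CPM, lay above every spleen and skin library. *Jun* was higher in colon (1.71 ± 0.30, adjusted p = 1.4e-05) and lower in blood (-1.72 ± 0.31, adjusted p = 5.59e-05). It was not called in lungs (0.73 ± 0.28, adjusted p = 0.0732, but 0.93 and adjusted p = 0.00187 with each mouse as a block), in VAT (0.35 ± 0.28) or in skin (-0.21 ± 0.29). Skin compared with colon gave -1.93 ± 0.31 for *Jun* (adjusted p = 1e-06), whereas *Fos* (-0.36 ± 0.37) and *Junb* (0.00 ± 0.13) did not pass that test.

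*Atf3* encodes a stress-induced ATF protein that dimerises with JUN and often represses its targets. The 10 CD44hi spleen libraries held 3 counts of it in total and the 9 blood libraries 22, of which 19 were in 1 blood ST2+ library (ratio 9.77, exact 95% counting interval 2.94 to 51.0, not called). Lungs held 16.4 to 221 CPM, VAT 10.3 to 747, skin 134 to 735 and colon 151 to 743 CPM. No library of these 4 tissues overlapped with spleen. With so few spleen counts the size of the difference is known only roughly. The ratio of pooled CPM to spleen was 683 in lungs (exact 95% counting interval 233 to 3316), 2370 in VAT (810 to 11493), 3308 in colon (1131 to 16046) and 2169 in skin (742 to 10522), and *Atf3* was called in all 4. Among the nonlymphoid tissues, where counts were ample, colon exceeded VAT (1.16 ± 0.34, adjusted p = 0.02, 8.28% of all genes called), and VAT exceeded lungs (1.59 ± 0.34, adjusted p = 0.000752, 6.16% called). In ST2+ Tregs alone *Atf3* was not called between colon and VAT, with means of 679 and 578 CPM. The means in ST2- Tregs were 327 and 77.2 CPM.

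*Egr1* encodes a zinc finger factor outside the AP-1 family that is induced by the T cell receptor through the MAP kinase pathway. Its levels were lowest in blood, 0.441 to 21.1 CPM, and it was the only member called lower in lungs than in spleen. Spleen ranged from 45.5 to 142 CPM, lungs from 7.81 to 134 and colon from 229 to 750. All lung libraries but 1 were below every spleen library. The changes compared with spleen were -3.42 ± 0.47 in blood (adjusted p = 1.45e-07), -1.37 ± 0.39 in lungs (adjusted p = 0.0101), 1.37 ± 0.37 in VAT, 2.48 ± 0.39 in colon and 1.52 ± 0.37 in skin. The lung call was lost without mouse 4 and with limma voom (adjusted p = 0.0643 in each), and the VAT call without mouse 3 (0.61, adjusted p = 0.281), whose VAT ST2- library held 486 CPM.

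*Ier2*, a small nuclear protein of uncertain biochemical role, and *Dusp1*, the phosphatase that switches off the MAP kinases p38 and JNK, had high levels everywhere. *Ier2* spanned 172 to 321 CPM in blood and spleen and 232 to 706 CPM in the other tissues, and skin alone did not overlap with spleen. Its fold changes ran from 0.67 ± 0.11 in colon to 1.07 ± 0.10 in VAT, and the colon call was lost without mouse 3 (0.56, under the fold limit). *Dusp1* rose from 357 to 1022 CPM in spleen to 1321 to 2133 CPM in skin, with no overlap. Its fold change was 1.54 ± 0.16 for skin, 1.46 ± 0.17 for colon, 1.22 ± 0.16 for VAT and 1.08 ± 0.16 for lungs. In skin ST2- Tregs it had the highest level of the 10 per kilobase of longest coding transcript, 847 CPM per kb. *Junb* had 781, *Fos* 563 and *Egr1* 53.3 CPM per kb. This order depends on the length used. The longest coding transcripts of *Dusp1* and *Junb* have 1990 and 1809 bases, and all their annotated exons 3311 and 2301. By the latter *Junb* would stand above *Dusp1*.

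Differences that rest on *Fos* in spleen depended on the mouse. In mice 2 and 4, *Fos* stood at 408 and 280 CPM in spleen ST2- Tregs and at 492 and 357 CPM in spleen ST2+ Tregs, against 18.3 to 66.6 CPM in mice 1, 3 and 5. Spleen CD44lo Tregs gave the same division, with 478 and 367 CPM against 55.8 to 161 CPM. Both mice held the 2 highest values in 6 of the 10 genes in CD44lo, 6 in ST2- and 5 in ST2+ Tregs of spleen. Averaged over the 10 genes, their spleen libraries deviated from the group means by 0.61 and 0.44 on the log2 scale, and those of mice 1, 3 and 5 by -0.58, -0.09 and -0.38. Blood of the same mice showed no such division for *Fos* (216 and 167 CPM in ST2- Tregs of mice 2 and 4, and 137, 169 and 54.2 CPM in mice 1, 3 and 5). Mice 2 and 4 did hold the 2 highest *Fos* values in lungs CD44lo, lungs ST2+, skin ST2- and skin ST2+ Tregs, by narrower margins. In lungs CD44lo Tregs these were 812 and 745 CPM, against 503 to 579 CPM in mice 1, 3 and 5. In lungs ST2-, both VAT groups and colon ST2- Tregs they did not hold both.

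The spleen libraries of mice 2 and 4 were left out after their high values were seen. Lower spleen *Fos* and *Jun* were thereby fixed in advance, so the changes and calls without both mice are a description and not a test. Without the spleen libraries of mice 2 and 4, *Fos* was called higher in blood than in spleen (1.94, adjusted p = 5.63e-08). Its difference from spleen also widened, to 3.98 for lungs, 4.57 for VAT and 4.64 for skin. *Jun* was then called higher in lungs (1.47, adjusted p = 0.000401) and VAT (1.08, adjusted p = 0.00818), and its decrease in blood shrank to -0.98 (adjusted p = 0.0278). All 10 genes were then called higher or lower than spleen in lungs, VAT and colon and 9 in skin. Leaving out mouse 2 alone took *Fos* to 2.64 for lungs, 3.29 for VAT, 3.69 for colon and 3.31 for skin.

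The levels of several members moved together between the ST2+ and ST2- libraries of the same mouse and tissue, which were sorted from the same suspension. Over 27 such pairs, the deviations from the group means correlated with r = 0.82 for *Fos*, 0.75 for *Dusp1*, 0.66 for *Junb* and 0.62 for *Jun*. The median over 8650 genes was 0.13. *Atf3* and *Egr1* did not follow (r = -0.01 and -0.19), and the values for *Fosb*, *Ier2*, *Jund* and *Fosl2* lay between 0.37 and 0.50. The paired libraries share an animal and a cell suspension, and these correlations are a description.

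**Figure D3:**
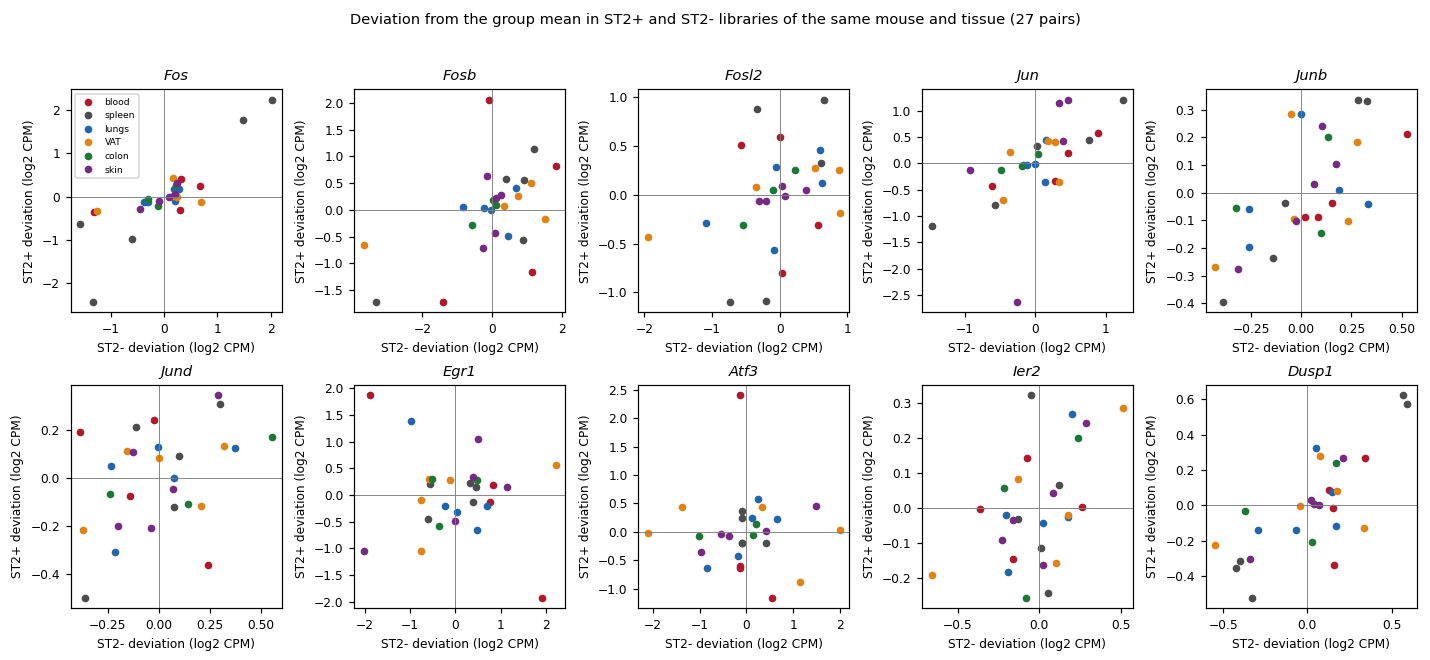
Deviation from the group mean, in log2 CPM, of the ST2- library (x axis) and the ST2+ library (y axis) of the same mouse and tissue, for each gene (27 pairs, coloured by tissue). *Fos* lies along the diagonal (r = 0.82) with spleen at both ends, and *Egr1* shows no such line (r = -0.19).

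Central CD44lo Tregs were sorted from spleen and lungs only, and they allow lungs and spleen to be compared in cells of a less activated state. Lung CD44lo Tregs were higher in 6 of the 10 genes, where 2.31% of all tested genes were higher, and lower in 0 (0.948%). *Fosl2* had 0 to 8 counts per library in spleen (0 to 4.27 CPM) and 21.3 to 75.6 CPM in lungs, and was higher by 5.52 ± 0.55 (adjusted p = 1.65e-11). *Dusp1* had 188, 519, 165, 464 and 172 CPM in spleen of mice 1 to 5 and 992, 1158, 1027, 1234 and 993 CPM in lungs, and was higher by 1.84 ± 0.24. The groups did not overlap for either gene. *Fosb* (2.83 ± 0.63), *Junb* (0.95 ± 0.17) and *Jund* (0.84 ± 0.17) were also called, the call of *Fosb* being lost with limma voom (adjusted p = 0.0935). *Egr1* went the other way, at 63.9, 11.5, 21.2, 40.4 and 15.9 CPM in lungs against 89.9, 68.4, 113, 41.7 and 137 CPM in spleen. It was lower in lungs in 5 of 5 mice without passing the test (-1.55 ± 0.54, adjusted p = 0.106), and was called without mouse 1 (-2.04, adjusted p = 0.0488). *Ier2* had an adjusted p of 0.012 but lay under the fold limit (0.54 ± 0.14).

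*Atf3* was the least certain of the 6. It had 1 count in all 5 spleen CD44lo libraries and 1, 28, 0, 3 and 13 counts in those of lungs, a ratio of 47.0 with an exact 95% counting interval of 8.02 to 1899. Its call was lost without mouse 2 (adjusted p = 0.382), mouse 4 (0.121) or mouse 5 (0.181) and with limma voom (0.226), and that of *Jund* without mouse 3 (adjusted p = 0.0735). *Fos* (1.46 ± 0.50, adjusted p = 0.0913) and *Jun* (1.15 ± 0.40, adjusted p = 0.106) were higher in lungs in 5 of 5 mice and were called with each mouse as a block (1.66 and 1.25, adjusted p = 0.0113 and 0.00849). Whether the difference between lungs and spleen was itself unlike in CD44hi ST2- and CD44lo Tregs was tested for each gene. With edgeR 0 of the 10 were called and 1, *Dusp1*, had an unadjusted p under 0.05 (0.136% of all genes were called).

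Within a tissue, CD44hi ST2- Tregs were called different from CD44lo Tregs in 1 of these genes each, *Dusp1* in spleen and *Atf3* in lungs. In spleen 1 gene of 10 was called higher and 0 lower, where 4.33% of all genes were higher and 0.637% lower. This was *Dusp1*, at 357, 724, 363, 711 and 382 CPM in CD44hi cells of mice 1 to 5 against the CD44lo values above, higher in 5 of 5 mice (0.75 ± 0.23, adjusted p = 0.0381). The ranges overlapped, and mice 2 and 4 were high in both populations. The call was lost without mouse 1, 3, 4 or 5 (adjusted p = 0.0757, 0.168, 0.0661 and 0.173). In lungs 1 gene was called higher and 0 lower (4.84% and 0.713% of all genes). *Atf3* stood at 26.7, 48.2, 16.4, 36.2 and 32.6 CPM in CD44hi ST2- Tregs of mice 1 to 5 and at 0.374, 14.7, 0, 1.71 and 5.30 CPM in CD44lo Tregs, with no overlap (2.88 ± 0.62, adjusted p = 0.000939). This call was lost with limma voom (adjusted p = 0.106). In 5 of 5 mice, CD44hi cells were lower in *Fos* (-0.49 ± 0.49), *Ier2* (-0.27 ± 0.14) and *Jun* (-0.37 ± 0.40) in spleen and in *Jun* (-0.53 ± 0.40) in lungs, and none of these passed the test. The remaining genes lay between 0.00 and 0.95 in spleen, apart from *Atf3* with 1 count in each population, and between -0.82 and 0.35 in lungs.

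ST2+ and ST2- CD44hi Tregs were compared within each tissue. The clearest differences were in VAT, where *Atf3*, *Fosb*, *Jund* and *Ier2* were higher in ST2+ cells, and in lungs, where *Atf3* and *Fosl2* were higher. Blood differed in *Fosl2* at very low counts. In spleen, colon and skin no member was called, and in skin the estimates lay between -0.26 and 0.15.

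In VAT 4 of the 10 genes were higher in ST2+ Tregs and 0 lower, where 1.27% of all tested genes were higher and 1.86% lower. *Atf3* stood at 540, 744, 560, 299 and 747 CPM in ST2+ and at 10.3, 60.2, 191, 106 and 17.8 CPM in ST2- Tregs of mice 1 to 5 (2.91 ± 0.49, adjusted p = 4.52e-05). *Jund* stood at 200, 256, 247, 214 and 252 CPM against 107, 174, 139, 161 and 125 CPM (0.73 ± 0.17, adjusted p = 0.00465). Neither gene overlapped between the populations, and both were higher in 5 of 5 mice. *Fosb* stood at 362, 605, 684, 505 and 805 CPM against 7.45, 134, 178, 303 and 230 CPM (1.80 ± 0.54, adjusted p = 0.0424). *Ier2* stood at 507, 706, 519, 571 and 613 CPM against 232, 525, 394, 415 and 336 CPM (0.62 ± 0.14, adjusted p = 0.00317). *Fosb* did not overlap, *Ier2* did so through mouse 2, and both were higher in 5 of 5 mice. The other 6 genes were not called, with estimates from 0.31 (*Junb*) to 0.95 (*Egr1*), and were higher in 5 of 5 mice for *Jun* and in 4 of 5 for *Fos*, *Fosl2*, *Junb*, *Egr1* and *Dusp1*.

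The VAT calls of *Fosb* and *Ier2* leaned on single libraries. The ST2- library of mouse 1 was the lowest of its group in 9 of the 10 genes, and without it *Fosb* stood at 1.49 (adjusted p = 0.0988) and *Ier2* at 0.48, under the fold limit. *Fosb* also lost its call without mouse 2, 3, 4 or 5 (adjusted p = 0.156, 0.164, 0.0604 and 0.156), *Ier2* without mouse 1 or 5 (0.53 and 0.56, under the fold limit) and *Jund* without mouse 3 (adjusted p = 0.0685). The VAT ST2- libraries were made from 93 to 220 sorted cells, against 220 in each VAT ST2+ library, and all 4 genes were still called when sorted cell number was added as a covariate. The sum of 6 myeloid markers was 63.5 to 227 CPM in VAT ST2+ and 0 to 91.5 CPM in VAT ST2- libraries, and its part in these differences was not tested.

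In lungs 2 of the 10 genes were higher in ST2+ Tregs and 0 lower (0.493% and 0.258% of all genes). *Atf3* stood at 110, 173, 93.9, 221 and 175 CPM in ST2+ and at 26.7, 48.2, 16.4, 36.2 and 32.6 CPM in ST2- Tregs of mice 1 to 5 (2.28 ± 0.50, adjusted p = 0.00649). *Fosl2* stood at 189, 117, 211, 238 and 142 CPM against 77.3, 46.9, 47.8, 76.2 and 23.0 CPM (1.73 ± 0.36, adjusted p = 0.0043). The groups did not overlap for either. The *Atf3* call was lost without mouse 4 or 5 (adjusted p = 0.139 and 0.0665) and the *Fosl2* call without mouse 3 (adjusted p = 0.113). *Fosb*, *Jund*, *Egr1*, *Ier2* and *Dusp1* were also higher in ST2+ cells in 5 of 5 mice without passing the test, and *Jun* was lower in 5 of 5 (-0.35 ± 0.40). *Fos* (0.23 ± 0.48) and *Junb* (0.11 ± 0.17) did not pass it either.

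In blood 1 gene was higher and 0 lower (2.34% and 1.72% of all genes). *Fosl2* had 13, 18, 5 and 8 counts in ST2+ Tregs of mice 2 to 5 and 1, 0, 1, 1 and 2 counts in ST2- Tregs of mice 1 to 5 (3.17 ± 0.83, adjusted p = 0.0158). These groups did not overlap, but the call was lost without mouse 2 or 3 (adjusted p = 0.112 and 0.159) and when sorted cell number was added as a covariate (adjusted p = 0.0661), the blood ST2+ libraries having 55 to 220 cells. It was lost as well with limma voom (adjusted p = 0.503). *Jun* was lower in ST2+ cells in 4 of 4 mice (-1.41 ± 0.47, adjusted p = 0.0677), and was called with each mouse as a block (-1.49, adjusted p = 0.00885). *Atf3* had 21 counts in ST2+ and 1 in ST2- libraries, 19 of them in mouse 2 (ratio 23.7, exact 95% counting interval 3.81 to 979.7, not called). *Fosb* stood at 2.49 ± 0.87 (adjusted p = 0.0868), and *Fos*, *Junb*, *Jund*, *Egr1*, *Ier2* and *Dusp1* lay between -0.21 and 0.50 without passing the test.

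In spleen, colon and skin edgeR called 0 of the 10 genes, where 0.349%, 0.0682% and 0.227% of all tested genes were called. At an unadjusted p under 0.05 there were 1 (*Dusp1*), 2 (*Atf3* and *Ier2*) and 0 genes. Limma voom with quality weights called 1 gene in colon, *Atf3*, and DESeq2 1 gene, *Ier2*, and both called 0 in spleen and skin. The estimates ran from -0.78 (*Egr1*) to 0.71 (*Fosb*) in spleen, leaving aside *Atf3* with 3 counts in all, and from 0.04 (*Junb*) to 1.06 (*Atf3*) in colon. In colon *Atf3* stood at 651, 743 and 642 CPM in ST2+ Tregs of mice 1, 3 and 4 and at 336, 501, 350, 151 and 298 CPM in ST2- Tregs of mice 1 to 5, with no overlap (1.06 ± 0.51, adjusted p = 0.962). In skin *Atf3* stood at 243 to 426 CPM in ST2+ and 134 to 735 CPM in ST2- Tregs (-0.02 ± 0.45). The colon ST2+ libraries also held 317 to 706 CPM of the macrophage lysozyme *Lyz2*, against 18.0 to 168 CPM in colon ST2-, a value whose part in the *Atf3* level was not tested.

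The ST2 difference was tested for a dependence on tissue over all 6 tissues at once. *Atf3* alone was called (adjusted p = 0.0476, 1.39% of all genes called), and *Fosl2* was next (adjusted p = 0.0677). With each mouse as a block *Atf3*, *Fosl2* and *Jun* were called. Without any 1 of the 5 mice no member was called, nor with limma voom, with all 70 libraries, with sorted cell number as a covariate or without the spleen libraries of mice 2 and 4.

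**Figure D4:**
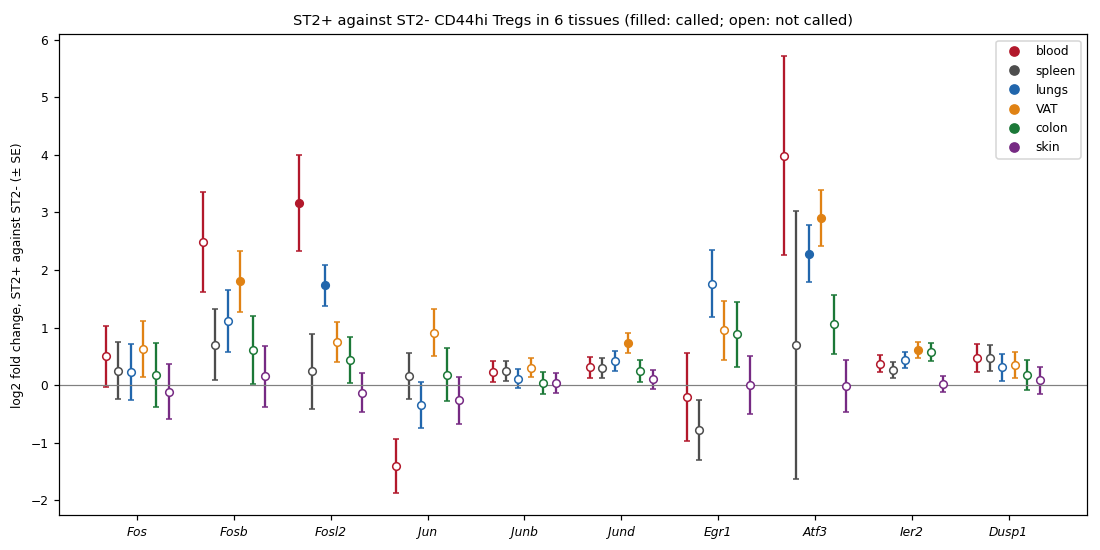
ST2+ compared with ST2- CD44hi Tregs in each tissue. The y axis is the log2 fold change ± SE, colours are tissues and filled points were called. *Atf3* is filled in lungs (2.28) and VAT (2.91) and at -0.02 in skin, and *Fosl2* is filled in blood (3.17) and lungs (1.73).

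Genes around the 10 were examined as whole lists. The first list held 14 further leucine zipper genes, partners or relatives of AP-1 proteins, with *Creb1* and *Crem* among the relatives. Of these, 13 were tested, and skin had 10 that were higher than spleen, VAT 7, colon 6 and lungs 3, with 0 lower in these tissues. Over all genes the shares called higher were 21.6%, 9.07%, 14.8% and 6.54% in that order. *Crem*, a cAMP-responsive factor whose short forms repress CREB targets, was higher in all 4, from 2.28 ± 0.18 in lungs to 3.86 ± 0.19 in skin, where it reached a mean of 1147 CPM. *Atf4*, of the integrated stress response, was higher by 0.71 ± 0.10 to 1.33 ± 0.10. *Batf*, which pairs with JUN proteins in T cells, was lower in blood (-0.71 ± 0.13). CD44hi Tregs exceeded CD44lo Tregs in 4 genes of this list in spleen and 3 in lungs, led by *Maf* (3.92 ± 0.35 and 3.35 ± 0.33), where 4.33% and 4.84% of all genes were higher. Between ST2+ and ST2- cells the listed genes called were in blood (3 higher, 1 lower) and spleen (*Crem*, 1.20 ± 0.25). Over all genes, 2.34% were higher and 1.72% lower in blood, and 0.349% were called either way in spleen.

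Among 20 other immediate early genes, lungs had 11 higher and 2 lower than spleen, VAT 12 and 1, colon 14 and 3, and skin 13 and 2. Over all genes the shares were 6.54% and 3.77% for lungs, 9.07% and 6.72% for VAT, 14.8% and 4.62% for colon, and 21.6% and 19.6% for skin. *Dusp5*, a nuclear ERK phosphatase, was higher in all 4 (2.22 ± 0.19 to 2.97 ± 0.19), as was the zinc finger gene *Klf6* (1.40 ± 0.13 to 2.17 ± 0.13). Blood gave the opposite balance, 2 higher and 10 lower (3.2% and 4.4% of all genes), including *Nr4a1*, a direct target of T cell receptor signals (-2.44 ± 0.31). In ST2+ compared with ST2- Tregs, 5 were higher in VAT and 4 in lungs with 0 lower (1.27% and 0.493% of all genes higher). Blood had 3 higher, among them *Dusp5* (1.06 ± 0.27), and 2 lower, *Dusp6* (-2.84 ± 0.56) and *Dusp2* (-0.83 ± 0.21), skin had 1 higher, *Myc* (1.22 ± 0.29), and spleen and colon 0. *Nfkbiz*, an atypical inhibitor of NF-kB, was higher by 1.15 ± 0.18 in VAT and 1.16 ± 0.18 in lungs. *Zfp36*, whose protein destabilises immediate early and cytokine RNAs, was higher in VAT (1.26 ± 0.23).

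Few of the kinases and factors that act upstream of these genes were called. Of 14 such genes, including the MAP kinases and the serum response factor *Srf*, 0 were called against spleen in blood, lungs, VAT or colon. Over all genes the shares called higher and lower were 3.2% and 4.4% in blood and 6.54% and 3.77% in lungs. They were 9.07% and 6.72% in VAT and 14.8% and 4.62% in colon. In skin 2 were higher, *Mapkapk2* (1.57 ± 0.18) and *Srf* (0.81 ± 0.30), and 1 was lower, *Elk3* (-0.73 ± 0.17), and in skin 41.2% of all genes were called in either direction.

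The 10 genes were alike in pattern across the 14 groups, with *Jun* and *Egr1* the least so. Over the group means of log2 CPM, the 45 pairs of members correlated with a mean r of 0.78 (0.38 to 0.97). The mean r of *Jun* with the other 9 was 0.51 and that of *Egr1* 0.60. *Junb* and *Dusp1* were the closest pair, at 0.97 over group means and 0.86 over deviations within groups in the 67 libraries. Within groups the mean over pairs was 0.35. Group means share tissue, libraries and scaling factors, so these values are a description.

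The genes outside the 10 with the most similar pattern, by r with the mean z-score of the members over 14 group means, were *Nfkbia* (0.98), *Zfp36* (0.97), *Klf4* (0.96), *Csrnp1* (0.96), *Siah2* (0.96), *Nfkbiz* (0.96), *Kctd12* (0.95), *Cd69* (0.94), *Areg* (0.94) and *Gadd45b* (0.94). Of these, *Nfkbia*, *Zfp36*, *Nfkbiz* and *Gadd45b* were on the list of other immediate early genes. *Areg*, the epidermal growth factor receptor ligand amphiregulin, ran from a mean of 2.02 CPM in spleen CD44lo to 636 CPM in VAT ST2+ Tregs. *Cd69*, an early activation antigen that retains T cells in tissue, ran from 385 CPM in spleen ST2- to 1320 CPM in colon ST2+ Tregs.

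Summed over the 10 genes, the mean level was 1609 CPM in blood ST2-, 1977 in blood ST2+, 1828 in spleen ST2- and 2207 in spleen ST2+ Tregs. For ST2- and ST2+ Tregs of lungs it was 4034 and 4974 CPM, of VAT 4572 and 7335, of colon 6600 and 8152, and of skin 6214 and 6236 CPM. Heat shock genes, which dissociation also induces, were likewise lowest in blood and spleen by median sum. They were highest in skin, and the 10 genes in colon. The sum of 12 of them ranged from 1652 to 2483 CPM in blood and spleen, 1825 to 3024 in lungs, 2057 to 3414 in VAT, 2536 to 3361 in colon and 4327 to 6496 CPM in skin. Of the 12, skin had 11 called higher than spleen, colon 5, VAT 2 and lungs 0. Over all genes the shares called higher were 21.6%, 14.8%, 9.07% and 6.54% in that order. *Hspb1* was called lower in lungs (-2.88 ± 0.91), at means of 0.182 against 1.16 CPM. *Hspa1b* was called lower in blood (-3.17 ± 0.89), at means of 2.08 against 17.2 CPM. *Hspa1a*, the most inducible HSP70 gene, was higher in VAT (3.13 ± 0.71) and colon (3.39 ± 0.73), at means of 38.4 and 31.0 CPM against 3.49 CPM in spleen. The part of dissociation in the levels of the 10 genes was not tested.

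Markers of other cell types also differed between groups. The sum of 6 myeloid markers was 791 to 927 CPM in the 3 colon ST2+ libraries, in which none of the 6 was at 0, and at most 227 CPM in every other group. *Csf1r*, a defining macrophage receptor, was at 76.1 to 203 CPM there, at 0 to 1.28 CPM in colon ST2-, at 0 to 54.6 CPM in VAT ST2+ and at 0 in every VAT ST2- library. *Atf3*, *Fos* and *Egr1* are also expressed by macrophages, and the part of such transcripts in the colon and VAT values was not tested. In colon ST2- Tregs alone, where the myeloid sum was 29.6 to 205 CPM, 9 of the 10 genes were higher than in spleen ST2- Tregs and 0 lower (8.76% and 2.31% of all genes). The myeloid sum of spleen ST2- Tregs was 2.96 to 26.0 CPM. Colon ST2- libraries also held stromal sums of up to 886 CPM and epithelial sums of up to 755 CPM, whose part was likewise not tested.

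Stromal markers (7 genes) summed to 60.9 to 1200 CPM in colon, 28.0 to 773 in skin and 66.8 to 371 CPM in spleen, where *Pecam1*, which T cells also express, alone had 66.8 to 371 CPM. Epithelial markers (6 genes) reached 1045 CPM in 1 colon ST2+ and 1153 CPM in 1 skin ST2- library. Those of B cells (4 genes) reached 388 CPM in colon ST2+ and 209 CPM in colon ST2- libraries and were at most 184 CPM in the other tissues, and adipocyte markers (3 genes) were at most 14.1 CPM in every group, VAT included. In CD44hi Tregs of lungs the myeloid sum was at most 34.0 CPM, with *Csf1r* at 0. In these Tregs 8 of the 10 genes were higher than in spleen as given above. The epithelial marker *Sftpc* had a mean of 44.5 CPM in them and 0 in CD44hi Tregs of spleen (9.41 ± 0.95). In CD44lo Tregs of lungs *Sftpc* had 5.77 to 126 CPM, and the myeloid sum reached 116 CPM. The part of such transcripts in the lung values was not tested.

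**Figure D5:**
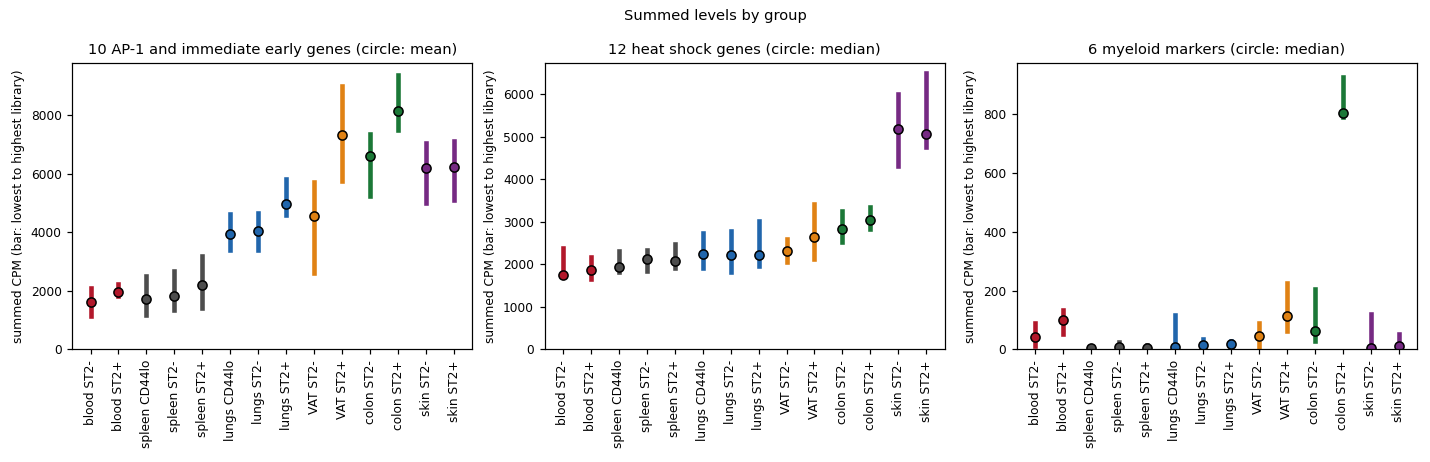
Summed CPM of the 10 AP-1 and immediate early genes, of 12 heat shock genes and of 6 myeloid markers in the 14 groups (bars from the lowest to the highest library, circles the mean in the first panel and the median in the others). The 10 genes are raised in lungs, VAT, colon and skin, heat shock genes are highest in skin (4327 to 6496 CPM), and the myeloid sum is highest in colon ST2+ (791 to 927 CPM).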

How the data were processed

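RNA was amplified as full-length cDNA from sorts of up to 220 cells (fewer in VAT ST2- and blood, with a lowest of 55) and sequenced as single reads of 58 bases. The authors deposited raw read counts per gene, one column per library, in a table with no normalization. Per the labels and the submitters' processing notes, reads were handled with CASAVA 1.8.2, STAR, Picard, SAMtools and HTSeq 0.4.1 on GRCm38. How reads were assigned to genes and strands, and whether duplicates were removed, is not given in the sources used here. Of 53465 gene IDs, 53274 matched GENCODE names and 21865 were protein-coding.

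From these counts, 13191 protein-coding genes that reached 1 CPM in 10% or more of the 67 libraries were kept. One edgeR 4.0.16 quasi-likelihood model (R 4.3.3, TMM factors, 14 groups, prior count 2) gave all fold changes, standard errors and Benjamini-Hochberg adjusted p-values over all tested genes. Calls required a fold of 1.5 and an adjusted p of at most 0.05. For tissue comparisons the ST2+ and ST2- groups were averaged with equal weight. The study used limma voom with quality weights, which is an alternative here (limma 3.58.1), as are DESeq2 1.42.0, median-of-ratios factors, no filter (18536 genes), 1 CPM in 50% of libraries (10408 genes), all 70 libraries, sorted cell number as a covariate, and each mouse left out. Chosen after seeing the data were a correction for start positions, based on 1 count per position and strand, and leaving out the spleen libraries of mice 2 and 4 or the VAT ST2- library of mouse 1. Tests were run on simulated counts drawn independently for each library, with no change set from levels near 0. That check cannot speak to paired libraries or to *Atf3* and *Fosl2* in spleen and blood. Correlations, ranges and figures used Python 3.11.15, pandas 2.3.3, scipy 1.17.1 and matplotlib 3.10.9. Ratios against spleen at 3 or fewer counts carry exact intervals, which cover counting error only.

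The labels name the animal of each library by an ID shared across groups, and the 5 animals are numbered 1 to 5 here. The libraries are therefore paired, and n counts mice within a group. In tissue comparisons most mice gave both an ST2+ and an ST2- library from 1 suspension. The main model had no term for the animal and treated libraries as independent. Standard errors and adjusted p of those comparisons count libraries, not mice. They may be too small where paired libraries moved together, as for *Fos* (r = 0.82). *Atf3* (r = -0.01) and *Egr1* (r = -0.19) did not do so. A block for the mouse does not cover a suspension shared within a tissue. Over 8650 genes the deviations of ST2+ and ST2- libraries of the same mouse and tissue correlated with a mean r of 0.0844 over 27 pairs (lowest -0.0125, above 0.1 in 7). The fit with each mouse as a block is given beside a result where it changed the call. Counts of mice in which a gene was higher or lower are a description, given without a share over all tested genes.

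The 10 genes, the lists of related genes and the markers were chosen with earlier results of these data known. All 10 genes are given in every comparison with spleen, between ST2 populations and between CD44 populations, by value or by range, and of each list at most the 4 called genes with the smallest adjusted p in a comparison. Promoter sequences are from RefSeq on GRCm38.p6.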

Additional observations from a re-analysis of the deposited data

Results flagged for a closer look

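Of 130 groups of 4 or 5 libraries checked (gene by group), 10 had a highest or lowest library far from the others by Dixon's 95% limit, which chance gives in about 1 in 20. *Egr1* was high, at 486 CPM in VAT ST2- of mouse 3 (the others at most 95 CPM) and 134 CPM in lungs ST2+ of mouse 5 (next 44.2 CPM). *Junb* was high in blood ST2+ of mouse 2 (872 CPM, next 734) and low in colon ST2- of mouse 4 (1118 CPM, next 1424). *Dusp1* was low in blood ST2- of mouse 1 (228 CPM, next 428). *Atf3* stood at 10.8 CPM in blood ST2+ of mouse 2 (next 0.479 CPM). Single counts set the other *Atf3* values, 0.609 CPM in blood ST2- of mouse 5, 0.367 CPM in spleen CD44lo of mouse 1 and 0.423 CPM in spleen ST2- of mouse 4, where the other libraries were at 0. *Fosl2* stood at 4.27 CPM in spleen CD44lo of mouse 4 (next 1.23 CPM).

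The ST2 difference of *Atf3* depended on tissue in edgeR's quasi-likelihood test of the interaction over 6 tissues (Benjamini-Hochberg adjusted p = 0.0476), with log2 fold changes of 2.91 ± 0.49 for VAT, 2.28 ± 0.50 for lungs, 1.06 ± 0.51 for colon and -0.02 ± 0.45 for skin. It was no longer called with limma voom, with all 70 libraries, with sorted cell number as a covariate, without the spleen libraries of mice 2 and 4, or without any 1 mouse.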

How the results depend on the processing

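Of 54 calls of members, 54 were kept with each mouse as a block, with median-of-ratios factors, with either other filter and with the start position correction, 53 with DESeq2, with sorted cells as a covariate and without the spleen libraries of mice 2 and 4, 52 without the VAT ST2- library of mouse 1, 51 with all 70 libraries, 49 with voom, and 46 to 52 without 1 mouse. The block added calls for *Jun* in lungs (0.93), *Fosb* in blood (-1.47), *Fos* and *Jun* in CD44lo lungs (1.66 and 1.25) and *Jun* between ST2 populations in blood (-1.49), and changed no other call but those of the interaction.

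The number of members called between ST2+ and ST2- in blood (1) was 2 with the block, 0 with voom, 4 with DESeq2, 2 with all libraries, 0 with the cell covariate, 2 without the spleen libraries of mice 2 and 4, and 0 to 2 without 1 mouse. In lungs (2) it was 1 to 2 without 1 mouse. In VAT (4) it was 2 with all libraries, 2 without the ST2- library of mouse 1 and 2 to 3 without 1 mouse. In colon (0) it was 1 with voom and 1 with DESeq2. CD44hi against CD44lo in spleen (1) gave 0 with all libraries and 0 to 1 without 1 mouse, and in lungs (1) 0 with voom. The interaction (1) gave 3 with the block and 0 with voom, all libraries, the cell covariate, the spleen libraries of mice 2 and 4 left out, or any 1 mouse left out, and was not run in DESeq2. *Fos* in blood against spleen (-0.02) turned to 0.23 with the block, 0.52 with voom, 0.21 with all libraries, 1.94 without the spleen libraries of mice 2 and 4, and -0.34 to 0.52 without 1 mouse. *Egr1* between ST2 populations in VAT (0.95) turned to -0.013 with the cell covariate. The cause was not tested. Counts of 3 or fewer limit *Atf3* and *Fosl2* in blood and spleen.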
